A study of Mus musculus with 23 samples.

Results

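The genes described here encode enzymes of transsulfuration and of amino acid synthesis: Cbs, Cth, Asns, Aldh18a1, Pycr1, Got1, Got2, Gpt2, Mat2a and Glul. They were taken by symbol, 10 genes in all, and 9 of them had a row among the 14651 genes measured. Pycr1 was not analysed here. RNA from the brown adipose tissue (BAT) of 23 mice was sequenced, 1 library per mouse, to ask how BAT gene expression responds to cold and to the loss of MCU, the pore of the mitochondrial calcium uniporter. All mice were males of 8 to 12 weeks on a largely C57BL/6 background. The floxed Mcu line was made in embryonic stem cells of a mixed background and then crossed to C57BL/6 mice until nearly homogeneous. The Cre line is designated B6.FVB. All carried loxP sites around exon 2 of Mcu on both alleles (Mcu[fl/fl]). Control mice carried no Cre (6 at room temperature, RT, and 5 at 4°C for 6 h), and BAT-Mcu-KO mice (Mcu[fl/fl];Ucp1-Cre) carried 1 copy of a transgene in which the Ucp1 promoter drives Cre recombinase (6 mice at each temperature). The Ucp1 promoter is active in brown adipocytes, whereas whole BAT also holds vascular, immune and stromal cells that keep Mcu. Cold-exposed mice were housed singly, with no bedding and, unless stated otherwise, no food. Whether mice at RT were fed over the same hours is not given in the sources used here, and the part of food in the cold changes was not tested. In whole tissue, fewer cells of a type and less RNA per cell cannot be told apart either.

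Transsulfuration carries the sulfur of methionine to cysteine. Mat2a makes S-adenosylmethionine from methionine, Cbs joins the homocysteine left after methyl transfer to serine, and Cth splits the product, cystathionine, into cysteine. Asns and Glul put amide nitrogen on aspartate and glutamate to make asparagine and glutamine, Aldh18a1 and Pycr1 catalyse the first and last steps from glutamate to proline, and the aminotransferases Got1 (cytosol), Got2 (mitochondria) and Gpt2 (mitochondria) move nitrogen between glutamate and aspartate or alanine. Asns, Pycr1, Cth and Aldh18a1 are textbook targets of ATF4, the transcription factor of the integrated stress response, which also responds to shortage of amino acids.

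ATF4 bound together with a C/EBP factor recognises a composite site with the core TGATGNAA. This core was searched on both strands in the RefSeq promoters of GRCm38.p6, 250 bases before to 50 bases after each start. Of the 10 genes 9 had a promoter entry (not Cth), and 3 of these 9 genes held the core in any of their entries. Of the 8 that were also analysed here, 2 held it. Among all 32851 promoter entries 3.97% held it, a share per entry rather than per gene, and a gene may have several entries. The 3 stretches are shown because they hold those matches. Each is written 5′ to 3′ on the strand of the gene, with the match in capitals. Asns (minus strand, chr6:7693214-7693243) holds it 23 bases before its RefSeq start and Pycr1 (minus strand, chr11:120643833-120643862) 103 bases before. In Got1 (minus strand, chr19:43524689-43524718) it lies 102 bases before the start on the opposite strand, so that its reverse complement is in capitals. In GENCODE M21 Asns begins further upstream, at 7693254, and the match lies in its first exon, 22 bases after that start. The full cAMP response element TGACGTCA was in the promoter entries of 0 of the 9 genes and in 1.79% of all entries, so it overlapped none of these matches. A match is a description of letters and not of a bound site.
Asns: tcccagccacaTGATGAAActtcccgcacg
Pycr1: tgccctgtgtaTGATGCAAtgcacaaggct
Got1: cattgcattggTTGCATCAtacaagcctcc

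The libraries held 7129271 to 21006347 reads. Mcu had a normalized count, that is reads divided by the size factor of the library, of 70.8 to 136 in the 11 control mice and of 15.2 to 42.4 in the 12 BAT-Mcu-KO mice, so each library matched its genotype label. Ucp1 was at 50590.2 to 198042.8 in every mouse, and all 8 brown adipocyte markers were measured. Transcripts of skeletal muscle, which lies next to interscapular BAT, varied from mouse to mouse. Their sum over 13 genes was 581 to 9417.7 in control mice at RT, 286.2 to 46961.5 in control mice at 4°C, 500.1 to 64692.5 in the RT group of BAT-Mcu-KO mice and 351.2 to 12179.2 in their 4°C group. It was over 20000 in 5 mice: replicates 2 and 5 of control at 4°C and replicates 3, 4 and 6 of BAT-Mcu-KO at RT.

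Cold raised most of these transcripts in control BAT. The 3 largest changes were those of Got1, Cth and Cbs, each with a group mean at 4°C over 5 times that at RT, and Glul alone fell. The threshold for a call was an adjusted p (Benjamini-Hochberg) under 0.05 in a limma fit of log2(normalized count + 1) over all 14651 genes and 23 mice. By cold in control mice 8 of the 9 enzymes were called, against 46.0% of all genes. Of these, 7 were higher (22.3% of all genes) and 1 was lower (23.7% of all genes). In BAT-Mcu-KO mice 5 of the 9 were called, against 43.3% of all genes, with 4 higher (21.4% of all genes) and 1 lower (21.9% of all genes). The median log2 change of the 9 enzymes was 0.83 (control) and 0.20 (BAT-Mcu-KO), and that of all genes was -0.02 in both. The groups at RT and at 4°C did not overlap for 4 of the 9 enzymes in control mice (25.2% of all genes) and for 4 in BAT-Mcu-KO mice (24.2% of all genes). Among all genes ranked from the highest log2 change by cold in control mice, Got1 stood at place 88, Cth at place 99 and Cbs at place 154.

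**Figure D1:**
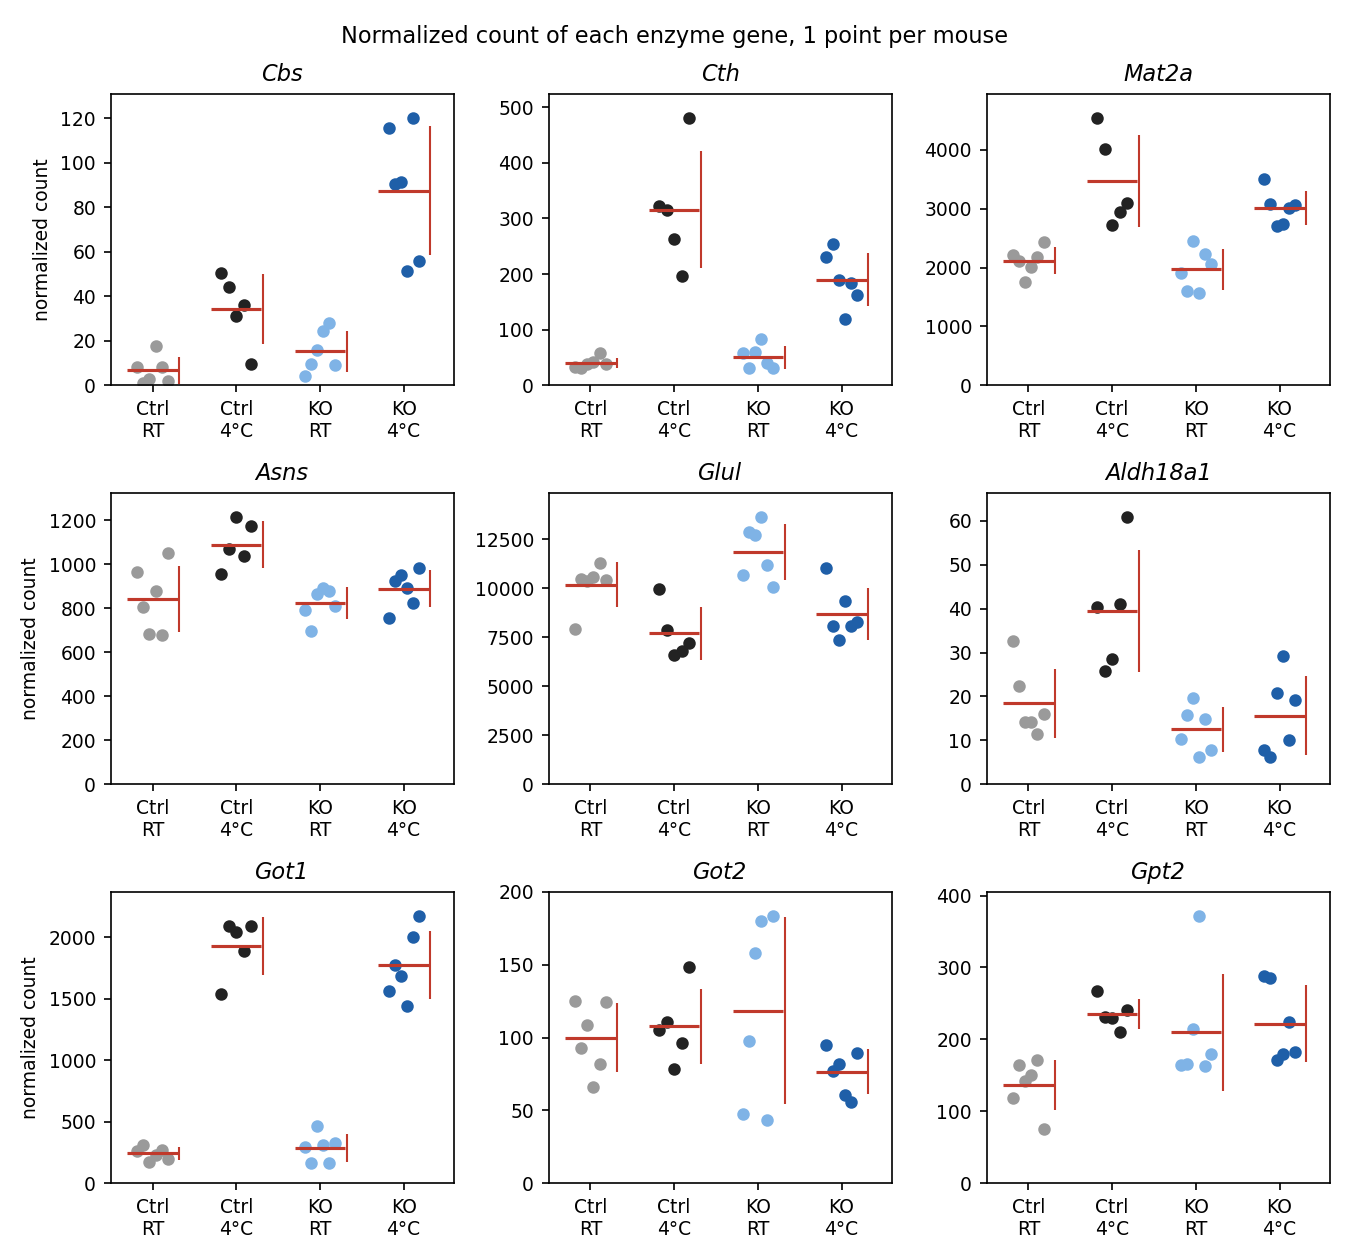
Normalized count (y axis, linear, from 0) of the 9 enzyme genes in each mouse, by group (x axis; KO is BAT-Mcu-KO). Each point is 1 mouse, red horizontal lines are group means and red vertical lines are ± 1 SD. Got1 at 4°C lies at 1444.3 to 2175.0 in all 11 mice, above every mouse at RT (166.4 to 466.9), whereas the Got2 groups overlap.

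Cth (ENSMUSG00000028179, GRCm38 chromosome 3, 157894248 to 157925077, minus strand) had a normalized count of 31.0, 38.7 and 58.0 as the lowest, median and highest of the 6 control mice at RT. In the 5 control mice at 4°C it was 321.6, 315.7, 263.8, 196.1 and 481.1. All 5 mice at 4°C lay above all 6 at RT. The means were 40.1 ± 9.62 and 315.7 ± 105.3 (SD, n = 6 and 5), a ratio of 7.88 and a log2 fold change of 2.91 (SE 0.25, limma adjusted p = 8.15e-10). In BAT-Mcu-KO mice Cth was 30.2, 48.4 and 83.3 (RT) and 119.8, 186.1 and 253.4 (4°C) (lowest, median and highest of 6). These groups did not overlap either, and the log2 fold change was 1.96 (SE 0.24, limma adjusted p = 2.78e-07).

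Cbs (ENSMUSG00000024039, chromosome 17, 31608894 to 31637238, minus strand), the enzyme before Cth, had the lowest mean of the 9 in control mice at RT. In control mice it was 0.970, 5.56 and 17.4 at RT (lowest, median and highest of 6, from 1 to 16 reads). At 4°C it was 50.6, 44.0, 31.1, 36.0 and 9.62. Of the 5 mice at 4°C, 4 lay above all mice at RT and replicate 5 lay among them. The log2 fold change was 2.44 (SE 0.51, limma adjusted p = 0.000335), and with so few reads at RT its size depends on the 1 added to each count. In BAT-Mcu-KO mice Cbs was 4.32, 12.8 and 27.9 (RT) and 51.2, 90.7 and 120.1 (4°C). The latter 6 mice all lay above the former 6, with a log2 fold change of 2.61 (SE 0.49, limma adjusted p = 0.000101).

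Mat2a (ENSMUSG00000053907, chromosome 6, 72432799 to 72439558, minus strand), upstream of both, rose less. Control mice had 1751.7, 2144.3 and 2431.2 at RT (lowest, median and highest of 6) and 4547.2, 4024.6, 2729.3, 2948.0 and 3097.6 in the 5 at 4°C, a log2 fold change of 0.69 (SE 0.13, limma adjusted p = 7.51e-05). The corresponding BAT-Mcu-KO values were 1561.5, 1992.3 and 2444.3 at RT, then 2709.8, 3038.8 and 3507.0 at 4°C, a log2 fold change of 0.63 (SE 0.12, limma adjusted p = 0.000145). Every mouse at 4°C lay above every mouse at RT of its genotype. Of the 25-base windows of its longest coding transcript, 21.3% also occur in other genes, mostly Gm9523, and the antisense gene Particl overlaps it in annotation, so its level is less certain than that of Cth, which shared 0 windows. The share was 11.2% for Cbs, 7.69% for Gpt2 and 0 for Asns, Aldh18a1 and Got1, while Cth overlaps Gm43314 and Aldh18a1 the pseudogene Gm15801 on the same strand.

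Asns (ENSMUSG00000029752, chromosome 6, 7675169 to 7693254, minus strand), whose promoter match is shown above, was already at 842 ± 149.5 in control mice at RT (n = 6) and reached 1088.6 ± 105.2 at 4°C (n = 5). The 5 cold mice had 952.7, 1068.4, 1214.7, 1036.5 and 1170.7, and 3 of them lay above all mice at RT (679.3 to 1048.8). The log2 fold change was 0.38 (SE 0.11, limma adjusted p = 0.00459). After quantile normalization it was 0.25 and no longer called (limma adjusted p = 0.0618, within a range of 0.000926 to 0.0618 over all alternatives). In BAT-Mcu-KO mice Asns was 697.3, 836.8 and 890.5 (RT) and 756.5, 907.5 and 980.3 (4°C), which overlap, and the log2 difference was 0.11 (SE 0.10, limma adjusted p = 0.405).

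Glul (ENSMUSG00000026473, chromosome 1, 153899944 to 153909723, plus strand), the other amide-forming enzyme and the most abundant of the 9, went the opposite way. Control mice had 7936.2, 10464.1 and 11276.3 at RT and 9978.3, 7886.9, 6606.1, 6820.0 and 7215.9 at 4°C. It fell by 0.41 on the log2 scale (SE 0.12, limma adjusted p = 0.0052), with 4 of 5 cold mice below all at RT. In BAT-Mcu-KO mice the lowest, median and highest values were 10046.4, 11945.3 and 13656.1 at RT and 7368.9, 8179.6 and 11061.9 at 4°C. It fell by 0.45 there (SE 0.11, limma adjusted p = 0.00176), with 5 of 6 cold mice below all at RT. Of its 25-base windows 27.6% occur in other genes, mostly the pseudogene Glns-ps1, and the opposite-strand gene Teddm2 overlaps it in annotation. Per kilobase of exon, the ratio of Asns to Glul was 0.0732 to 0.147 in control mice at RT (median 0.0969) and 0.116 to 0.223 at 4°C (median 0.185), which overlap. In BAT-Mcu-KO mice it was 0.0659 to 0.0978 (median 0.0863) and 0.0831 to 0.157 (median 0.132), which overlap too.

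Aldh18a1 (ENSMUSG00000025007, chromosome 19, 40550257 to 40588463, minus strand), the only proline synthesis enzyme measured among the 9, rested on 7 to 76 reads per mouse. In control mice at RT its values were 11.4, 15.0 and 32.7 (lowest, median and highest of 6), against 40.5, 25.8, 28.6, 41.1 and 60.9 in the 5 cold mice. The log2 fold change was 1.08 (SE 0.37, limma adjusted p = 0.0185), with 3 of 5 cold mice above all at RT. Replicate 5 of control at 4°C, the highest, decided this call: without it the log2 difference was 0.91 (limma adjusted p = 0.0631), and without all 5 mice rich in muscle transcripts it was 1.03 (limma adjusted p = 0.0553). Over all alternatives its adjusted p ranged from 0.00737 to 0.0631. In BAT-Mcu-KO mice Aldh18a1 was 6.27, 12.6 and 19.7 (RT) and 6.14, 14.6 and 29.3 (4°C), a log2 difference of 0.20 (SE 0.35, limma adjusted p = 0.677).

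Got1 (ENSMUSG00000025190, chromosome 19, 43499752 to 43524605, minus strand), the cytosolic aspartate aminotransferase, changed most. Control mice had 175.5, 246.4 and 309.3 at RT (lowest, median and highest) and 1537.3, 2095.8, 2042.3, 1885.0 and 2093.7 at 4°C, a ratio of means of 7.99 and a log2 fold change of 3.01 (SE 0.20, limma adjusted p = 1.07e-11). The BAT-Mcu-KO groups stood at 166.4, 300.8 and 466.9 (RT) and 1444.3, 1728.9 and 2175.0 (4°C), a ratio of 6.16 and a log2 fold change of 2.70 (SE 0.19, limma adjusted p = 2.79e-11). In neither genotype did the groups overlap.

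Got2 (ENSMUSG00000031672, chromosome 8, 95864134 to 95888547, minus strand), the mitochondrial partner of Got1, did not pass the test in either genotype. Its values in control mice were 66.4, 100.8 and 125.4 at RT and 105.2, 110.8, 78.4, 96.2 and 148.3 at 4°C, a log2 difference of 0.11 (95% interval -0.52 to 0.75, limma adjusted p = 0.788). Values in BAT-Mcu-KO mice were 43.7, 127.8 and 183.6 (RT) and 55.8, 79.3 and 94.6 (4°C), a log2 difference of -0.42 (SE 0.29, limma adjusted p = 0.256). Per kilobase of exon, Got1 was 3.06 to 6.54 times Got2 in control mice at RT and 26.8 to 49.5 times at 4°C, and 3.26 to 11.7 times and 31.4 to 68.3 times in BAT-Mcu-KO mice. These ratios do not overlap between temperatures. The count of Got2 is uncertain, since 60% of its 25-base windows occur in other genes, mostly Gm10874, and reads that map to several places were not counted. The opposite-strand gene Gm45760 also overlaps Got2 in annotation, and reads were counted irrespective of strand.

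Got2 also moved with the muscle transcripts. In the 3 RT mice of BAT-Mcu-KO with muscle sums over 20000, Got2 was 157.8 to 183.6 and Got1 309.1 to 466.9, whereas in the other 3 Got2 was 43.7 to 97.7 and Got1 166.4 to 292.5. Over all 23 mice, deviations from the group means had a Pearson r with the log2 muscle sum of 0.575 for Got2, 0.447 for Got1 and 0.393 for Gpt2, given as a description. Without the 5 mice rich in muscle transcripts, an alternative chosen after seeing the data, the log2 difference of Got2 by cold was -0.07 (control) and 0.35 (BAT-Mcu-KO), and neither was called. Without BAT-Mcu-KO RT replicate 5 the decrease of Got2 by cold in BAT-Mcu-KO mice was called (-0.66, limma adjusted p = 0.0488, within a range of 0.0488 to 0.525 over all alternatives). The part of muscle RNA in these values was not tested.

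**Figure D2:**
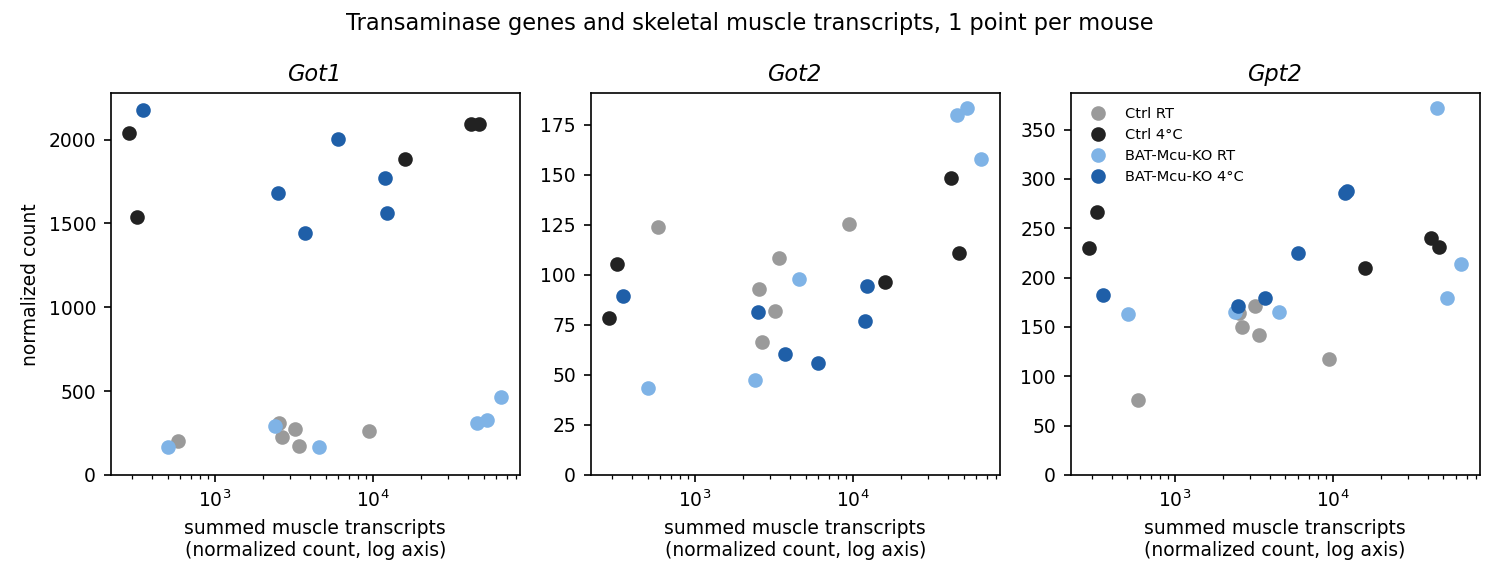
Normalized count of the 3 aminotransferase genes (y axis, linear, from 0) against the summed normalized count of 13 skeletal muscle genes (x axis, log) in each of 23 mice, coloured by group. The 3 BAT-Mcu-KO mice at RT with the highest muscle sums have the 3 highest Got2 values (157.8 to 183.6), and Got1 is separated by temperature at every muscle sum.

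Gpt2 (ENSMUSG00000031700, chromosome 8, 85492576 to 85527560, plus strand), the mitochondrial alanine aminotransferase, was called by cold in control mice and not in BAT-Mcu-KO mice. Its control values were 75.5, 145.9 and 170.9 at RT and 267, 230.7, 230.2, 210.1 and 240.6 in the 5 mice at 4°C, without overlap, a log2 fold change of 0.83 (SE 0.21, limma adjusted p = 0.00203). In BAT-Mcu-KO mice its values were 163.6, 172.5 and 371.8 (RT) and 171, 203.7 and 287.9 (4°C), a log2 difference of 0.12 (SE 0.20, limma adjusted p = 0.673). The test of the difference between genotypes is given with the interaction.

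**Figure D3:**
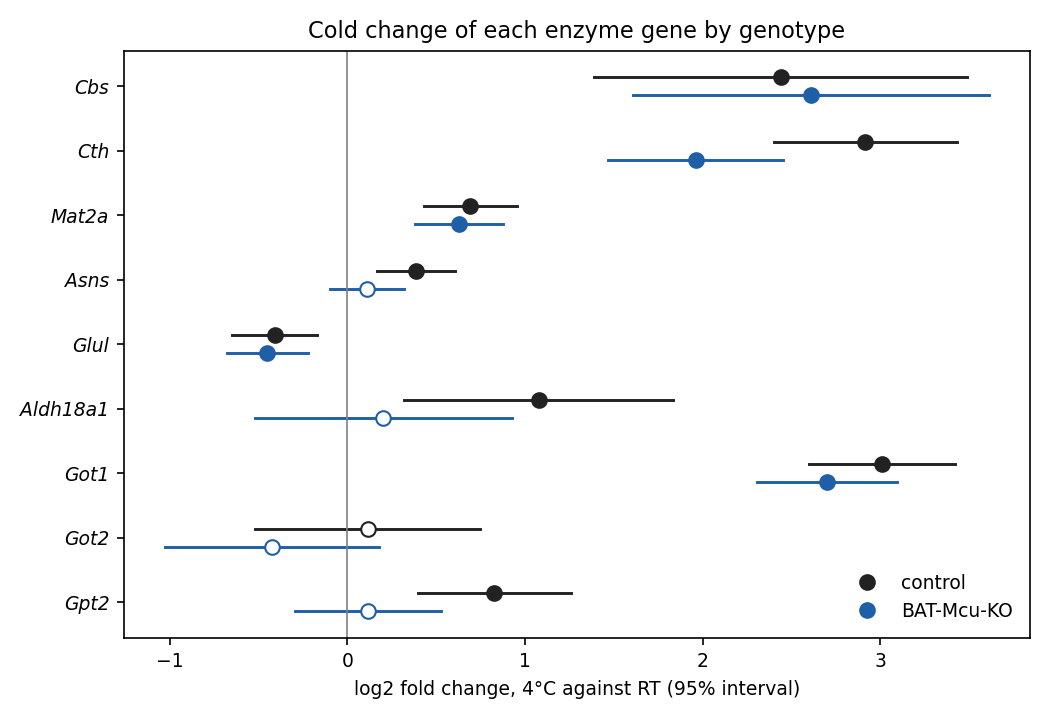
Log2 fold change by cold (x axis, 4°C against RT) of the 9 enzyme genes (y axis), with 95% intervals from the limma fit, in control (black) and BAT-Mcu-KO (blue) mice. Filled points are called at an adjusted p under 0.05 and open points are not; Got1, Cth and Cbs lie between 1.96 and 3.01 in both genotypes, and Glul is the only called gene left of 0.

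Marker transcripts of other cells in the tissue changed with cold too. For scale, 22.3% of all genes were called higher and 23.7% lower by cold in control mice, and 21.4% and 21.9% in BAT-Mcu-KO mice. The summed normalized count of 6 endothelial markers was 3120.5 to 4493.1 in control mice at RT and 5809.3 to 10038.3 at 4°C, and 3347.1 to 4583.1 and 5418.6 to 9340.7 in BAT-Mcu-KO mice, with 3 of the 6 genes called higher by cold in each genotype and 1 called lower in control mice. The sum of 8 macrophage markers was 778.7 to 1193.7 and 959.4 to 1553.2 in control mice, which overlap, with 3 genes called higher. In BAT-Mcu-KO mice it was 647.9 to 1144.1 and 1198.3 to 1655.2, with 5 called higher. The sum of the 8 brown adipocyte markers was 200376.6 to 284679.6 at RT and 277988.6 to 341495.8 at 4°C in control mice, with 3 genes called higher and 3 lower. In BAT-Mcu-KO mice it was 195017.7 to 220366.9 and 298237.3 to 332355.6, with 2 called higher and 0 lower. Ucp1, 1 of these 8 and itself raised by cold, makes up much of this sum. Alone it was 53145.8 to 70028.0 and 140888.5 to 198042.8 in control mice, and 50590.2 to 64888.6 and 145145.2 to 169143.8 in BAT-Mcu-KO mice. The part of these cells in the cold changes of the enzymes was not tested.

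Among the genes around the 9 enzymes, more were called lower than higher by cold. Of 47 other genes in 4 lists of neighbouring pathways 37 were measured, and by cold in control mice 8 were called higher (22.3% of all genes) and 19 lower (23.7% of all genes), with a median log2 change of -0.37. In BAT-Mcu-KO mice 10 were called higher (21.4% of all genes) and 16 lower (21.9% of all genes), with a median of -0.22. Without the 5 mice rich in muscle transcripts the counts higher and lower were 8 and 12 in control mice and 5 and 11 in BAT-Mcu-KO mice. Of all 14651 genes in that setting, 2779 were called higher and 2868 lower in control mice, and 2408 and 2300 in BAT-Mcu-KO mice. The 3 called genes with the smallest p by cold in control mice are named for each list.

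In the methionine cycle and salvage list, 13 of 16 genes were measured and 1 was called higher and 6 lower in control mice (3 and 7 in the knockout). Mtrr, which reactivates methionine synthase, went from 65.7 ± 13.5 at RT to 141.2 ± 27.3 at 4°C in control mice (SD, n = 6 and 5), a log2 fold change of 1.10 (limma adjusted p = 5.42e-05). Adi1, an enzyme of methionine salvage, went from 677.6 ± 66.5 to 299.3 ± 74.4 and fell by 1.21 on the log2 scale (limma adjusted p = 2.64e-07). Ahcyl2, a relative of S-adenosylhomocysteine hydrolase, fell by 0.81 (limma adjusted p = 0.000118). All 3 were called in the same direction in BAT-Mcu-KO mice, with log2 fold changes of 0.80, -1.10 and -0.74.

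The list of cysteine, sulfide, taurine and glutathione genes, which use the product of Cth, had 12 of 12 measured, with 3 called higher and 6 lower in control mice (3 and 4 in the knockout). Cdo1, which oxidises cysteine on the way to taurine, was the most abundant gene named from these lists, at 12312.9 ± 1759.4 in control mice at RT and 25213.3 ± 1975.8 at 4°C, a log2 fold change of 1.04 (SE 0.09, limma adjusted p = 1.03e-09). Gclm, the modifier subunit of the first enzyme of glutathione synthesis, had a log2 fold change of 0.90 (limma adjusted p = 5.06e-05). Ethe1, a mitochondrial enzyme of sulfide oxidation, fell by 0.93 (limma adjusted p = 8.05e-07). In BAT-Mcu-KO mice the log2 fold changes were 0.93, 0.51 and -0.60, all called.

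Of the glutamate, glutamine, alanine and proline genes, 8 of 10 were measured, with 2 called higher and 5 lower in control mice (2 and 4 in the knockout). Glud1, glutamate dehydrogenase, went from 1289.8 ± 290.6 to 2898.3 ± 508.7 in control mice, a log2 fold change of 1.18 (limma adjusted p = 4.26e-05). Gpt, the cytosolic counterpart of Gpt2, went the other way, from 1143.4 ± 221.3 to 645 ± 98.3, and fell by 0.82 on the log2 scale (limma adjusted p = 7.57e-06). Aldh4a1, of proline breakdown, fell by 0.64 (limma adjusted p = 4.7e-05). The BAT-Mcu-KO log2 fold changes were 0.70, -0.68 and -0.62, all called.

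Of the aspartate, asparagine and arginine genes, 4 of 9 were measured, 2 called higher and 2 lower in control mice (2 and 1 in the knockout). Asl, argininosuccinate lyase, went from 187 ± 48.0 to 1041.3 ± 530.9 in control mice, a log2 fold change of 2.37 (limma adjusted p = 6.52e-07), and by 2.81 in BAT-Mcu-KO mice (limma adjusted p = 2.23e-08). Aspg and Asrgl1, which break down asparagine, fell by 0.66 (limma adjusted p = 0.00811) and 0.47 (limma adjusted p = 0.0028) in control mice. Asrgl1 was also called lower in BAT-Mcu-KO mice, where Aspg had a log2 difference of -0.08 (limma adjusted p = 0.759).

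**Figure D4:**
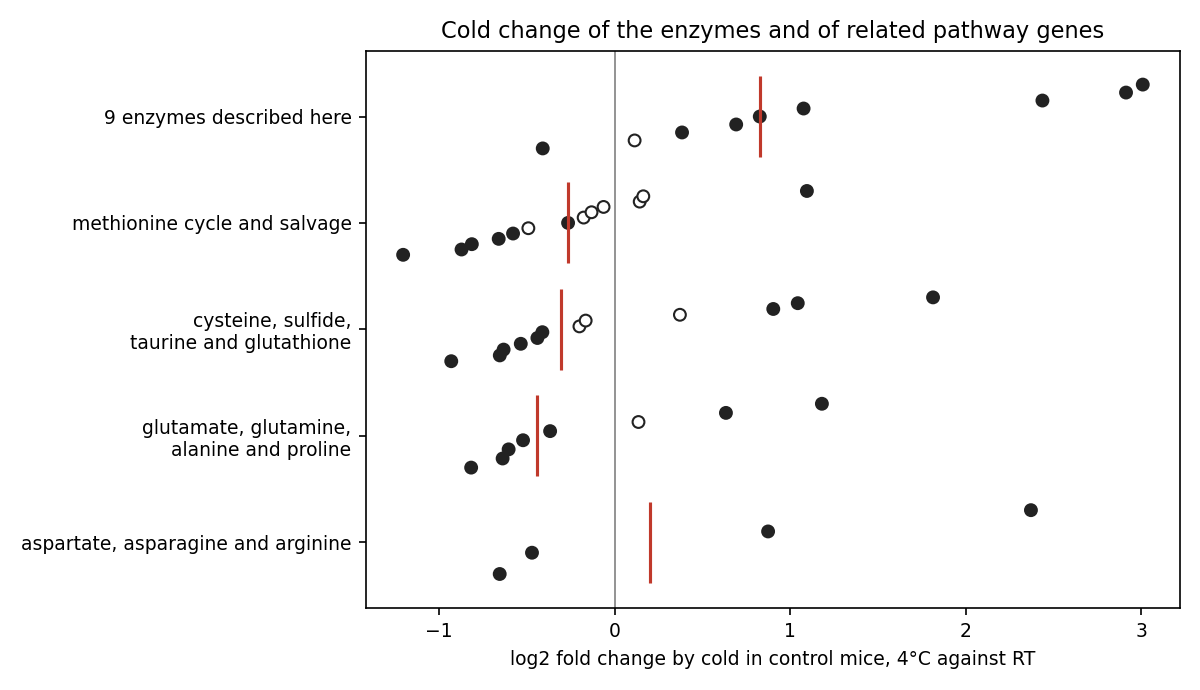
Log2 fold change by cold in control mice (x axis) of the 9 enzymes and of the 37 measured genes in the 4 neighbouring lists (rows), 1 point per gene. Filled points are called in the limma fit, open points are not, and red lines are medians; the median of the 9 enzymes is 0.83 and 8 of the 37 other genes are called to the right of 0.

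No enzyme differed between the genotypes past the threshold at either temperature. At RT 0 of the 9 were called by limma (0.0478% of all genes), DESeq2 or edgeR, and 2 had an unadjusted p under 0.05 by each tool, as did 5.15% of all genes by limma. By limma the 2 were Cbs, at 4.32 to 27.9 in BAT-Mcu-KO mice and 0.970 to 17.4 in control mice (log2 difference 1.26, SE 0.49, adjusted p = 0.94), and Gpt2 (0.59, SE 0.20, adjusted p = 0.934). Of the 9 enzymes 0 had groups that did not overlap at RT (0.218% of all genes).

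At 4°C 0 of the 9 were called by limma (0.0751% of all genes), DESeq2 or edgeR, and 4 had an unadjusted p under 0.05 by each tool, as did 6.98% of all genes by limma. Without the 5 mice rich in muscle transcripts 1 had an unadjusted p under 0.05 at 4°C and 1 at RT. Cbs was at 51.2 to 120.1 in the 6 BAT-Mcu-KO mice, above all 5 control mice (9.62 to 50.6), with a mean of 87.4 ± 29.0 against 34.3 ± 15.7 and a log2 difference of 1.43 (SE 0.51, limma adjusted p = 0.562). It was the only 1 of the 9 without overlap at 4°C (0.683% of all genes), and the lowest BAT-Mcu-KO mouse, at 51.2, stood close to the highest control mouse, at 50.6. Aldh18a1 had a mean of 15.6 ± 9.01 against 39.4 ± 13.9, with 5 of 6 BAT-Mcu-KO mice below all control mice, and a log2 difference of -1.41 (SE 0.37, limma adjusted p = 0.281). For Cth 4 of 6 BAT-Mcu-KO mice lay below all control mice (log2 difference -0.71, limma adjusted p = 0.553), and for Asns 5 of 6 (-0.29, limma adjusted p = 0.57). Within the transsulfuration pair the values thus stood in opposite order at 4°C, with Cbs higher and Cth lower in BAT-Mcu-KO mice, without either passing the test. Per kilobase of exon the ratio of Cth to Cbs at 4°C was 14.6 to 134.1 in control mice (median 19.2) and 4.10 to 7.81 in BAT-Mcu-KO mice (median 5.91). The value of 134.1 was that of replicate 5, where Cbs had 12 reads. At RT the ratio was 6.37 to 85.8 (median 27.7) in control and 3.755 to 35.9 (median 9.24) in BAT-Mcu-KO mice, which overlap. The ratios were not tested.

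The interaction, the cold change in BAT-Mcu-KO mice minus that in control mice, was called for 0 of the 9 enzymes and for 0 genes of the table (0%) by limma. DESeq2 and edgeR called 0 of the 9 as well, and 28 and 0 genes of the table. At an unadjusted p under 0.05 there were 2 enzymes by each tool, and 878 genes of the table by limma, 1069 by DESeq2 and 1051 by edgeR. By limma these were Cth (-0.95, 95% interval -1.67 to -0.24, adjusted p = 0.78) and Gpt2 (-0.71, 95% interval -1.30 to -0.12, adjusted p = 0.793). Without the 5 mice rich in muscle transcripts 0 enzymes had an unadjusted p under 0.05. The interaction was negative for 8 of the 9 and positive for Cbs (0.17, 95% interval -1.28 to 1.62). For Mat2a and Glul the 95% intervals were -0.42 to 0.30 and -0.37 to 0.29, the narrowest but for that of Asns. For Asns, called by cold in control mice and not in BAT-Mcu-KO mice, the interval was -0.58 to 0.03, and for Aldh18a1 -1.92 to 0.17, so that the genotypes were not shown to differ in their cold change. Of the 37 other pathway genes, 0 were called by genotype at RT, by genotype at 4°C or in the interaction with limma, DESeq2 or edgeR. By limma 1, 6 and 3 of them had an unadjusted p under 0.05, by DESeq2 1, 5 and 2, and by edgeR 2, 5 and 2.

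**Figure D5:**
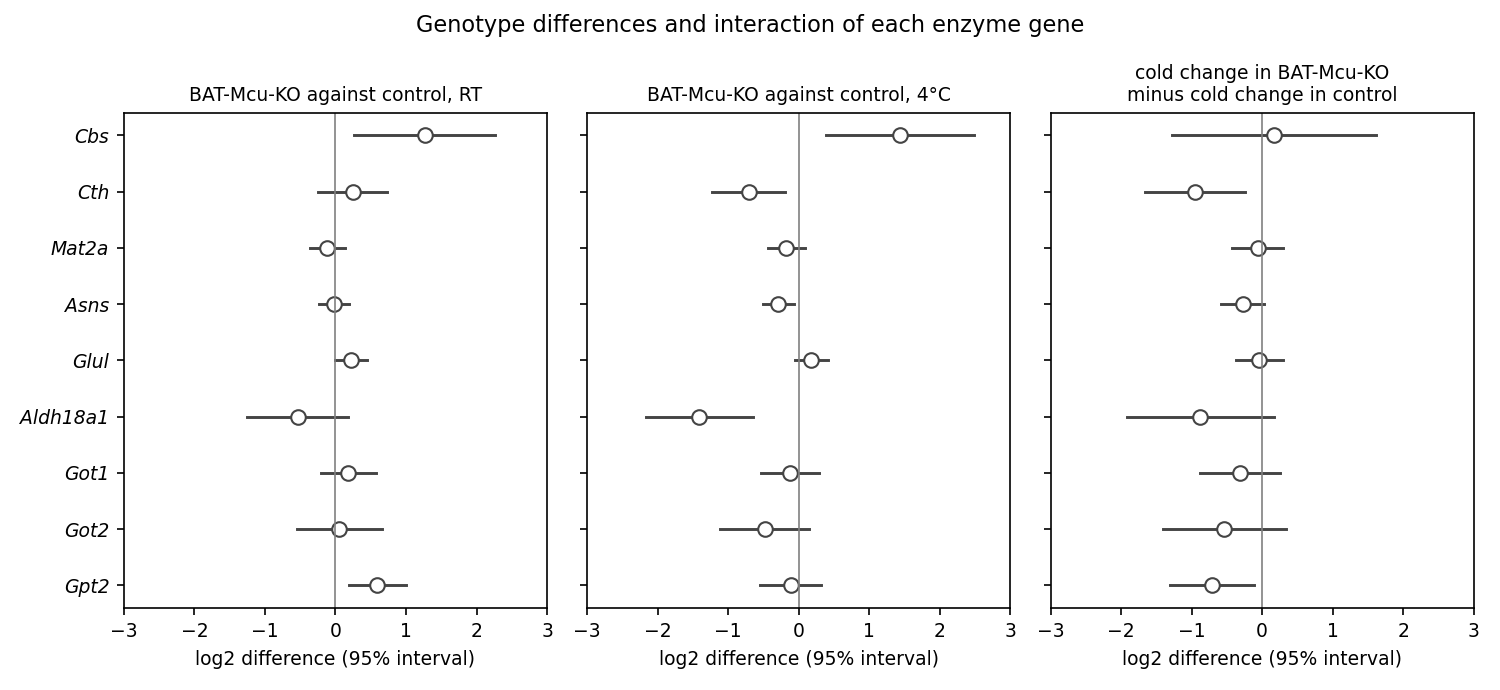
Log2 differences (x axes) with 95% intervals from the limma fit for the 9 enzyme genes (y axis): BAT-Mcu-KO against control at RT (left) and at 4°C (middle), and the cold change in BAT-Mcu-KO minus that in control (right). All points are open because 0 of the 9 were called in each comparison; Cbs has the highest point (1.43) and Aldh18a1 the lowest (-1.41), both at 4°C.

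Among mice of 1 group the enzymes did not vary together past the threshold. Of 36 pairs of the 9 genes, 0 were called on Pearson correlations of deviations from the group means (permutation test, two-sided, 100000 resamples, Benjamini-Hochberg over the 36 pairs), with a median r of 0.121 and 23 positive. The strongest was Cth with Gpt2 (n = 23 mice, Pearson r = 0.583, permutation p = 0.00412, adjusted p = 0.148, and Spearman rho = 0.551, permutation p = 0.00749, adjusted p = 0.215). Without the 2 mice farthest from the median of Cth it was 0.464. Leaving out replicate 6 of control at RT gave 2 called pairs and leaving out its replicate 2 gave 1. Cbs and Cth, which catalyse consecutive steps, had r = 0.145 (permutation p = 0.529, adjusted p = 0.828).

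For the 3 enzymes with a cold change of at least 1 on the log2 scale in both genotypes, the most similar genes of the table were found by the root mean square difference of centred log2 values over the 23 mice. Differences between groups were not taken out, so a small value can reflect a shared cold change or a shared genotype difference. The nearest gene lies below the median over all genes by definition, so the median is given for scale only. Got1 was nearest to Atp1b1, a sodium pump subunit (0.36), and Dusp8, a MAP kinase phosphatase (0.42), against a median of 1.53 over all genes. Cth was nearest to Chka, choline kinase (0.42), and Hacd2, a dehydratase of fatty acid elongation (0.43), against a median of 1.37. Cbs had no close match. Its nearest were Tbc1d9, a neighbour of Ucp1 in the genome (0.86), and Pitx3 (0.87), against a median of 1.74. Tbc1d9 was higher in BAT-Mcu-KO mice, with log2 differences of 1.24 at RT and 0.93 at 4°C, beside 1.26 and 1.43 for Cbs. The paper holds that Tbc1d9 is likely overexpressed because the Cre transgene includes it.

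In order of mean normalized count per kilobase of exon, a rough guide to levels of different genes, control BAT at RT held Glul (3062.9 ± 345.3), Mat2a (471.6 ± 50.5), Asns (307.9 ± 54.7), Got1 (95.2 ± 19.6), Gpt2 (24.2 ± 6.25), Got2 (20.7 ± 4.91), Cth (14.4 ± 3.45), Aldh18a1 (4.53 ± 1.94) and Cbs (0.887 ± 0.823) (SD, n = 6). Only uniquely mapped reads were counted, and the length was not corrected for windows shared with other genes. Their share was 60% for Got2, 27.6% for Glul, 21.3% for Mat2a and 0 for Cth, Asns and Got1. Gpt2 and Got2, and likewise Got2 and Cth, differed by less than their SDs combined, and each other pair of neighbours by more. These SDs are between mice and do not cover reads lost to shared windows. In control BAT at 4°C Got1 (760.5 ± 93.0, n = 5) stood beside Mat2a (773.4 ± 173.7), the difference being less than either SD, and Cth (113.1 ± 37.7) stood above Gpt2 (41.8 ± 3.67) and Got2 (22.3 ± 5.34).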

How the data were processed

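BAT RNA of 23 mice, each a separate animal, was made into Smart-seq2 libraries. The authors aligned reads with STAR 2.4.0j to mm10 (GENCODE M7), counted uniquely mapped exonic reads irrespective of strand with HTSeq, required 8 or more reads in 6 or more samples for a gene, and divided by DESeq2 size factors. The deposited signal is this table of normalized counts (14651 genes, of which 19 symbols had become dates). No sample column was set aside (0). A second deposited table holds the authors' own fold changes and p-values and was not used.

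All values (100% within 0.1 read, in the library where fewest were whole) were whole multiples of 1 read, which gave back the reads. Depth covers counting error only, and PCR copies are not independent molecules. The main test was limma 3.58.1 (R 4.3.3) on log2(normalized count + 1) with a variance trend, a mean per group and Benjamini-Hochberg adjustment over 14651 genes. A fold change on this scale understates the change of genes with low counts. DESeq2 1.42.0 and edgeR 4.0.16 on the recovered reads, the latter by its quasi-likelihood test, were alternatives, as were pseudocounts of 0.5 and 10, a mean of 50 or more, quantile normalization, scaling to the 75th percentile, no trend, only the compared groups, a replicate block and leaving out each mouse. The tests were checked on simulated counts. Correlations covered the 36 pairs of the 9 enzymes. Positions and exon lengths are from GENCODE M21 on GRCm38, matched by symbol, and promoters from RefSeq. Python 3.11.15, pandas 2.3.3 and matplotlib 3.10.9 were used.

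The 9 enzymes are all named. Of each other list the 3 called genes with the smallest p by cold in control mice are named, with any gene called by genotype or interaction (there were 0). The 2 most similar genes are named for enzymes called in both genotypes with a log2 change of at least 1. Members, lists and rules were chosen with earlier results of these data known.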

Additional observations from a re-analysis of the deposited data

Results flagged for a closer look

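In 2 of the 36 sets of values tested (9 enzymes in 4 groups) the mouse at 1 end stood apart from the others by Dixon's criterion at the 95% level, which chance alone exceeds in about 1 set in 20. Gpt2 was 371.8 in replicate 4 of BAT-Mcu-KO at RT, against 163.6 to 214.2 in the other 5 mice, and this mouse is 1 of the 5 rich in muscle transcripts. Glul was 7936.2 in replicate 1 of control at RT, against 10365.9 to 11276.3 in the other 5.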

How the results depend on the processing

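Leaving out a mouse at a time kept direction and call in 1015 of 1035 values, and the other alternatives in 510 of 521. Recovered reads gave 8 enzymes called by cold in control mice and 5 in BAT-Mcu-KO mice with both DESeq2 and edgeR, which called 6875 and 6780 of all genes in control mice against 6735 with limma. Requiring a mean of 50 or more leaves out Cbs and Aldh18a1 (6 of 7 and 4 of 7 called). In that setting 5422 of all 9531 genes were called by cold in control mice and 5070 in BAT-Mcu-KO mice. Scaling to the 75th percentile moved the all-gene median of the log2 cold change (control) to -0.13 from -0.02 and changed no call of the enzymes. Deviations of mice with the same replicate number had a mean r between groups from -0.137 to 0.121. The highest mean was that of control with BAT-Mcu-KO at 4°C, where every pair was positive (0.0416 to 0.218). Whether replicate numbers mark a batch was not tested. A replicate block called 8 and 5 enzymes by cold and 0 by genotype at RT, at 4°C and in the interaction, as without it. Of all genes it called 7 rather than 11 by genotype at 4°C.

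Without the 5 mice rich in muscle transcripts, chosen after seeing the data, the other pathway genes called by cold in BAT-Mcu-KO mice numbered 16 rather than 26. Calls over all genes in this comparison numbered 4708 rather than 6349. In that setting 1 enzyme pair was called, with a negative correlation, and the median r was -0.002 with 18 of 36 pairs positive. With fewer mice all counts can fall. The following log2 values, none of them called, changed sign without these 5 mice: Got1 by genotype at RT (-0.24) and in the interaction (0.19), Got2 by cold in control (-0.07) and BAT-Mcu-KO mice (0.35), by genotype at RT (-0.72) and in the interaction (0.42), and Mat2a in the interaction (0.01). With muscle transcripts as a covariate Got2 by genotype at RT was -0.18, and with 75th percentile scaling Glul in the interaction was 0.02. Leaving out a mouse at a time, the ranges that crossed 0 were -0.22 to 0.48 (Cbs, interaction), -0.08 to 0.05 (Asns, genotype at RT), -0.01 to 0.41 (Aldh18a1, cold in BAT-Mcu-KO), -0.01 to 0.22 (Got2, cold in control), -0.12 to 0.29 (Got2, genotype at RT), -0.14 to 0.04 (Mat2a, interaction) and -0.11 to 0.06 (Glul, interaction). Leaving out a mouse at a time, the enzyme pairs called ranged from 0 to 2, with 1 without control RT replicate 2 and 2 without control RT replicate 6, all of them positive. The cause was not tested in any of these.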

Other observations

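Among the neighbouring genes, 2 were chosen after their values were seen. Chac1, which breaks down glutathione, had a log2 fold change by cold of 1.81 in control mice (limma adjusted p = 0.00147) and a log2 difference of -0.07 in BAT-Mcu-KO mice (limma adjusted p = 0.909), with an interaction of -1.88 that was not called (limma adjusted p = 0.78). Gnmt, which uses S-adenosylmethionine to methylate glycine, had a log2 difference of -0.06 in control mice (limma adjusted p = 0.866) and a log2 fold change of 0.99 in BAT-Mcu-KO mice (limma adjusted p = 0.00271), with an interaction of 1.06 that was not called (limma adjusted p = 0.78).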
